A study of Mus musculus with 7 samples.

Results

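The comparison described here is between the last days of an HL-1 culture, day 4 against day 3, in 4 of the 7 small RNA libraries of the series. HL-1 is an immortalised mouse cardiomyocyte line that came from an atrial tumour and keeps the ability to contract. The cultures received no treatment that the labels name, and the groups differed only by 3 or 4 days in culture. Cells were seeded sparsely and became confluent and beating over the course, and the comparison asks whether the miRNA population still moved over the last 24-hour step. Day 3 and day 4 each had 2 libraries, 1 from each of 2 independent time courses. These are called time course 1 and time course 2 after the replicate number in the labels. The libraries were therefore compared within each time course. HL-1 is a single line, so the repeats are separate cultures and not separate animals.

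A miRNA is cut from a hairpin precursor, first by Drosha in the nucleus and then by Dicer in the cytoplasm, and usually 1 of the arms of the hairpin (5p or 3p) is kept by an Argonaute protein. Bases 2 to 8 from the 5′ end form the seed, which pairs with target mRNAs. A 5′ isomiR starts at another base than the reference miRNA and so carries another seed, while a 3′ isomiR ends at another base and keeps the seed. In heart muscle miR-1, miR-133 and miR-208 are the best known miRNAs, and miR-208a lies within a cardiac myosin gene.

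Sequences are given for some of the arms with the smallest p-values, for other arms that are described below, and for isomiRs. Arms without a RefSeq mature sequence are left out of the mature sequences, among them miR-187-3p, miR-378a-5p, miR-486-5p, miR-3107-5p and miR-1957a-5p. The mature sequences are from RefSeq (GRCm38), and capitals mark the seed. The 12 mature sequences carried 11 different seeds, since miR-99b-5p and miR-99a-5p share 1.
miR-99b-5p: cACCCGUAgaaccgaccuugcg
miR-99a-5p: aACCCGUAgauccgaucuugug
miR-99b-3p: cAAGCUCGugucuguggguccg
miR-671-5p: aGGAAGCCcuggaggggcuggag
miR-195a-3p: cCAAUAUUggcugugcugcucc
miR-210-3p: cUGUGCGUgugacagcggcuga
let-7f-2-3p: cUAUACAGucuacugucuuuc
let-7d-5p: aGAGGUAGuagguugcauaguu
miR-221-3p: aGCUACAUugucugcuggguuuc
miR-16-2-3p: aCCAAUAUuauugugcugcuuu
miR-324-3p: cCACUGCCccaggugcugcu
miR-128-3p: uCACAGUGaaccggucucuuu

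Deposited tags are written as DNA, again with the seed in capitals. They are shown because the isomiR results rest on them. The first miR-324-3p tag starts at the reference base and the second starts 2 bases further in, and the miR-128-3p tag starts 3 bases upstream of the reference start. The miR-151-5p tags end at the reference end, here that of the most frequent tag, and 1 and 2 bases past it.
miR-324-3p, reference start: cCACTGCCccaggtgctgctgg
miR-324-3p, start 2 bases in: aCTGCCCCaggtgctgctgggg
miR-128-3p, start 3 bases upstream: gTCTCACAgtgaaccggtct
miR-151-5p, reference end: tCGAGGAGctcacagtctagt
miR-151-5p, 1 base longer: tCGAGGAGctcacagtctagta
miR-151-5p, 2 bases longer: tCGAGGAGctcacagtctagtat

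The libraries held 5395407 and 5793545 tags at day 3 and 4945112 and 6899476 tags at day 4, time course 1 first. Between 99.69% and 99.77% of these were placed again on miRNA hairpins. Tags with a mismatch made up 9.04% and 6.95% of the generic tags (those starting within 3 nt of a known start) at day 3, against 5.06% and 7.75% at day 4. The share was thus lower at day 4 in time course 1 and higher in time course 2. Its part in the differences below was not tested beyond a count without such tags, which also gave 0 calls by edgeR, with 25 arms at an unadjusted p under 0.05. Across 594 miRNA arms, Spearman's rho was 0.97 between day 3 and day 4 in both time courses, and 0.952 and 0.956 between the time courses at day 3 and at day 4. These correlations are across arms of libraries made with 1 kit, and arms are not independent replicates.

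No miRNA arm passed the test between day 4 and day 3 of culture. Of 594 miRNA arms tested by edgeR's quasi-likelihood test with the time course as a block, 0 (0%) had an adjusted p under 0.05, and the smallest adjusted p was 0.94. At an unadjusted p under 0.05 there were 21 arms (3.54% of those tested), of which 11 (1.85%) were higher and 10 (1.68%) lower at day 4. DESeq2 called 0 arms as well, with 16 at an unadjusted p under 0.05, and limma-voom called 0 with 26. The median log2 fold change was 0.00, with 298 arms above 0 and 296 below. Levels are given as CPM, the tags of an arm per 1000000 generic tags after scaling by TMM factors, and are relative to the other miRNAs, so an amount of miRNA per cell cannot be read from them.

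In the median, arms differed less between day 3 and day 4 than between the time courses. Among 228 arms with a mean of at least 50 CPM in the 4 libraries, the median absolute log2 ratio of day 4 over day 3 was 0.24 for time course 1 and 0.34 for time course 2. Between the time courses it was 0.39 at day 3 and 0.40 at day 4. More than a 2-fold difference was seen for 8 and 12 arms between the days, and for 23 and 30 arms between the time courses. For scale, day 3 over day 1 gave 0.38 and 0.26, and day 3 over day 2, measured in time course 2 only, gave 0.21.

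The direction of a difference in time course 1 said little about that in time course 2. Of the 228 arms, 117 (51.3%) lay on the same side of 0 in both, 57 higher and 60 lower at day 4. Across the arms Pearson's r between the log2 ratios of the time courses was -0.17 and Spearman's rho -0.05. These are descriptions over arms of the same 4 libraries. No arm was more than 2-fold higher in both time courses or lower in both. In 1 time course alone 16 arms were past 2-fold, and 2, miR-324-3p and miR-16-2-3p, were past it in both but in opposite directions. A looser form of the study's rule for day 4 against day 1 was applied here to 193 arms and left 0 (0%). It asked for at least a 2-fold difference over library totals in both time courses. At least 1000 tags were needed in the sum of the libraries of each day, where a legend of the study sets over 1000 tags per library.

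**Figure D1:**
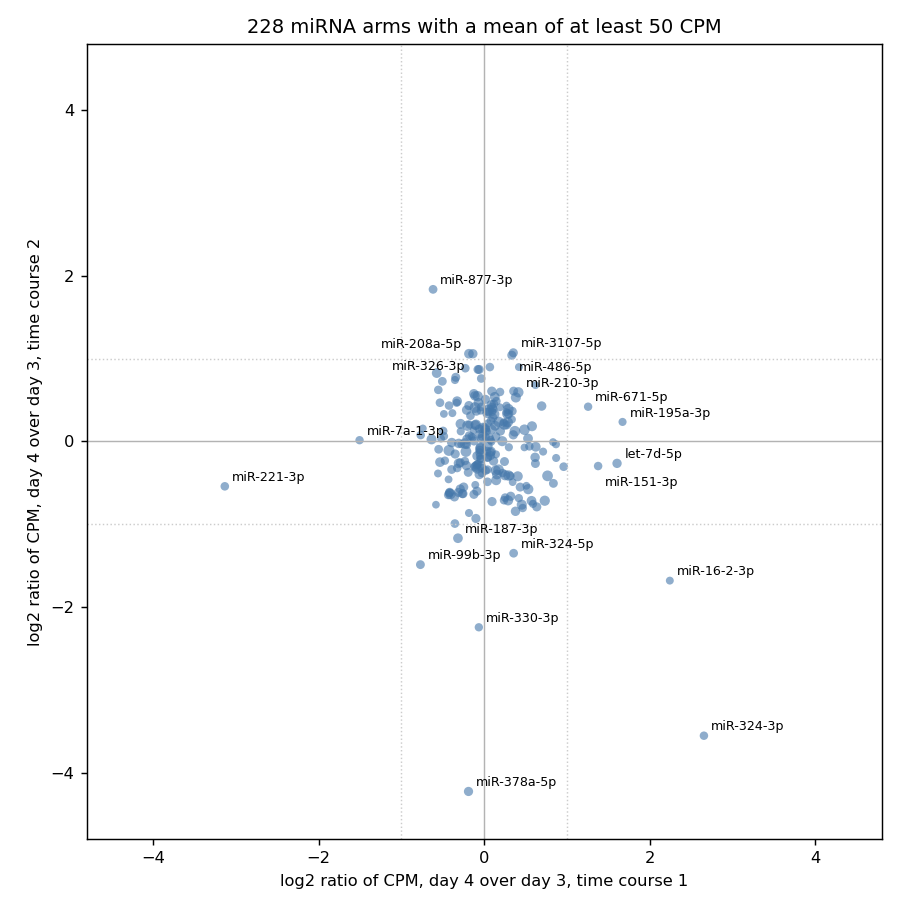
The log2 ratio of CPM at day 4 over day 3 in time course 1 (x axis) and time course 2 (y axis) for the 228 arms with a mean of at least 50 CPM, 1 point an arm and larger points for higher levels. Dotted lines mark 2-fold differences. No point lies past 2-fold in the same direction on both axes, and miR-324-3p and miR-16-2-3p lie far out in opposite directions.

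How close the days were is set by the intervals of the fit. For 160 of the 228 arms (70.2%) the 95% confidence interval of the log2 fold change lay within 1 of 0, and the median distance from the estimate to the end of the interval was 0.66. For the other arms the interval reached past a 2-fold difference, so that the fit does not show them to be alike on both days. No labels beyond the time course tell how the cultures of a day differed, and p-values measure the spread between these libraries. With 2 libraries a day, an exact permutation test that ignores the time courses cannot give a 2-sided p under 0.33, and a permutation within the time courses allows fewer relabellings. Values without overlap between the days are therefore given below as descriptions. In a test that ignores the time courses, a share of 0.33 of the relabellings gives days without overlap. Such values therefore do not set an arm apart, and the share of all arms with them was not counted.

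The 10 arms with the most tags made up 51.0% and 52.5% of generic tags at day 3 and 48.8% and 52.7% at day 4. None of them differed by more than 0.27 on the log2 scale in the fit. The cardiovascular miR-145a-5p had 139792 and 136805 CPM at day 3 and 135735 and 128539 CPM at day 4, a log2 fold change of -0.07 (95% interval -0.48 to 0.35). miR-24-3p, a product of the miR-23/24/27 clusters, had 84658 and 68948 CPM, then 87618 and 89527 CPM. miR-1a-3p, the main miRNA of striated muscle, had 74395 and 72366 CPM, then 55356 and 67096 CPM. Its day 4 values were both below its day 3 values, with a log2 fold change of -0.27 (95% interval -0.69 to 0.15). For miR-29a-3p, which is known to target collagen mRNAs, the values were 31825 and 36562 CPM at day 3 and 54059 and 27400 CPM at day 4, and day 4 lay on either side of day 3. The other 6 of these arms, miR-30d-5p, miR-301a-3p, miR-125b-5p, miR-30b-5p, miR-99a-5p and miR-133a-3p, had log2 fold changes of 0.07, -0.17, 0.13, 0.24, -0.13 and -0.07.

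miR-99b-3p had the smallest p of all arms, although it did not pass the adjusted threshold. It is the less abundant arm of a hairpin that lies in a cluster with let-7e and miR-125a (chr17:17830232-17830253, plus strand, GRCm38). Its levels were 661 and 628 CPM at day 3 and 387 and 223 CPM at day 4, so both day 4 libraries lay below both day 3 libraries. The log2 fold change was -1.13 (95% interval -1.81 to -0.45, edgeR adjusted p = 0.94), with log2 ratios of -0.77 and -1.49 in the time courses. The day 1 libraries had 824 and 605 CPM, and the day 2 library of time course 2 had 301 CPM, so that in time course 2 the level at day 2 was already near that of day 4. The tag 1 base longer than the reference mature sequence, the most frequent in the sum of these 4 libraries though not in each, had 808 and 1018 copies at day 3 and 361 and 344 at day 4. The other arm, miR-99b-5p, had a log2 fold change of 0.25 (95% interval -0.28 to 0.78). From the same cluster, let-7e-5p had 0.22 and miR-125a-5p 0.03, each with an interval that includes 0.

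Among the arms of at least 50 CPM that lay on the same side in both time courses, the 10 with the smallest p include 4 that were lower at day 4. Besides miR-99b-3p these were miR-187-3p, miR-378a-5p and let-7f-2-3p, all with an adjusted p of 0.94 by edgeR. miR-187-3p had 3024 and 4282 CPM at day 3 and 2426 and 1903 CPM at day 4, again without overlap (log2 fold change -0.74, 95% interval -1.36 to -0.12). With a library left out its value ran from -1.02 (without day 3 of time course 1) to -0.42 (without day 4 of time course 2). let-7f-2-3p, a passenger arm of a let-7 hairpin on the X chromosome (chrX:151912403-151912423, plus strand), had 61.1 and 64.3 CPM, then 40.6 and 37.7 CPM. Its log2 ratios of -0.58 and -0.77 were close to each other.

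miR-378a-5p stood apart because a single library set its value. The miRNA comes from an intron of Ppargc1b, which encodes a coactivator of mitochondrial genes. It had 1335 and 1755 CPM at day 3 and 1170 CPM in time course 1 at day 4, but 93.3 CPM in time course 2 at day 4. The tags behind this were 6713 and 9967, then 5155 and 624. Its log2 ratios were -0.19 and -4.23, and without the day 4 library of time course 2 the log2 fold change was -0.55. edgeR called it in 2 other settings, with low counts not filtered (log2 fold change -2.09, adjusted p = 8.7e-06) and without the day 4 library of time course 1 (-3.87, adjusted p = 0.029). The day 1 and day 2 libraries had 704 to 1881 CPM. The other arm of the hairpin, miR-378a-3p, differed by 0.01 (95% interval -0.54 to 0.55).

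The other 6 of the 10 arms were higher at day 4. miR-671-5p (chr5:24592132-24592154, plus strand) had 112 and 164 CPM at day 3 and 269 and 220.0 CPM at day 4, without overlap (log2 fold change 0.84, 95% interval 0.12 to 1.56). Its day 1 libraries, with 285 and 324 CPM, were higher than either day. miR-486-5p, a miRNA enriched in muscle and red blood cells, had 433 and 664 CPM at day 3 and 546 and 1366 CPM at day 4, and the groups overlapped. Its log2 fold change was 0.70 (95% interval 0.03 to 1.36). miR-3107-5p had 0.72, but its hairpin lies antisense to that of miR-486 and their tags were shared, so these are 1 measurement and not 2. The level of miR-195a-3p was 42.6 and 119 CPM at day 3 and 136 and 140 CPM at day 4, with a low value only in the day 3 library of time course 1. miR-1957a-5p had 49.1 and 32.8 CPM, then 75.6 and 52.6 CPM.

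miR-210-3p, the best known miRNA of the response to low oxygen (chr7:141221407-141221428, minus strand), was the most abundant of the 10. It had 16558 and 4644 CPM at day 3 and 22030.2 and 7004 CPM at day 4. The level differed between the time courses by more than between the days, but within each it was higher at day 4, with log2 ratios of 0.41 and 0.59. The fitted value was 0.50 (95% interval -0.03 to 1.02, edgeR adjusted p = 0.94). Day 1 had 9499 and 4077 CPM and day 2 in time course 2 had 3074 CPM, so that day 4 held the highest value in each time course. The other arm, miR-210-5p, had log2 ratios of -0.51 and 0.73.

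**Figure D2:**
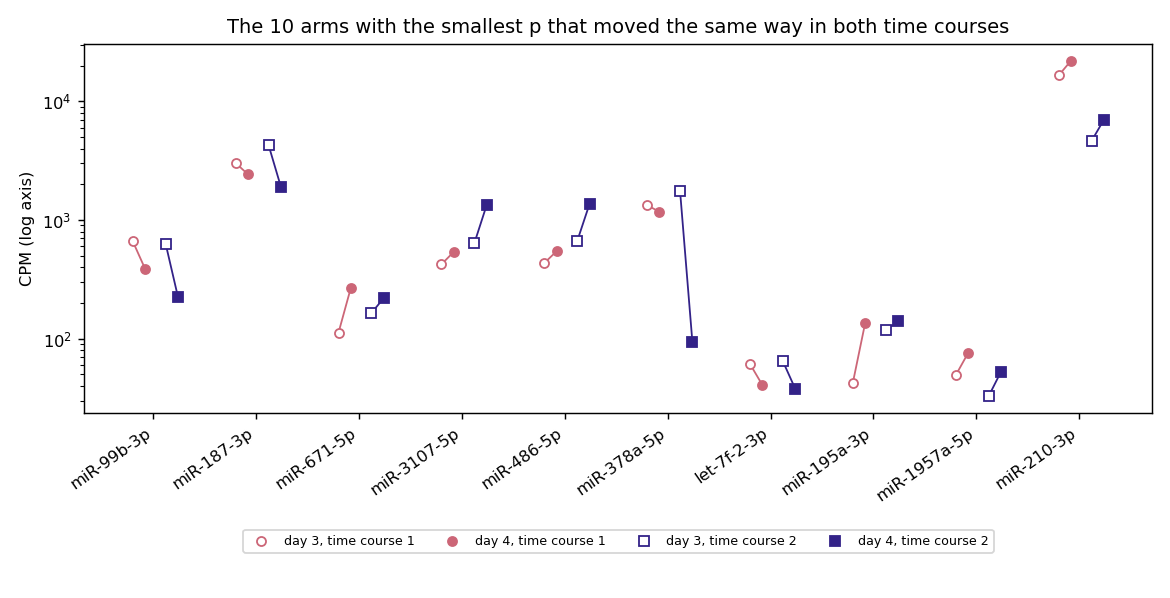
CPM on a log axis of the 10 arms with the smallest p among those of at least 50 CPM on the same side in both time courses. Open symbols are day 3 and filled symbols day 4, circles time course 1 and squares time course 2, and a line joins the libraries of a time course. The steep line of miR-378a-5p belongs to time course 2 only.

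The arms that moved most did so in 1 time course, or in opposite directions. These were chosen after their values were seen, as those past 2-fold in either time course. miR-324-3p had 51.7 CPM at day 3 and 327 CPM at day 4 in time course 1, but 461 and 38.9 CPM in time course 2. Its log2 ratios were therefore 2.65 and -3.55, and the fitted value of -0.56 had an interval from -3.61 to 2.48. miR-16-2-3p had 18.7 and 89.7 CPM in time course 1 and 149 and 46.4 CPM in time course 2. For let-7d-5p the day 3 library of time course 1 stood apart, with 565 CPM against 1646 CPM in time course 2 at day 3 and 1718 and 1369 CPM at day 4. miR-221-3p, known to act on the cell cycle inhibitor p27, had 188 CPM at day 3 and 21.1 CPM at day 4 in time course 1, and 519 and 356 CPM in time course 2. Its log2 ratios of -3.13 and -0.54 had the same sign, with a fitted value of -1.39 (95% interval -3.23 to 0.44), which was -0.11 without the day 4 library of time course 1 and -3.63 without that of time course 2. The level of miR-877-3p was 481 and 313 CPM in time course 1 and 188 and 674 CPM in time course 2, while miR-330-3p had 188 and 180 CPM in time course 1 and 231 and 48.5 CPM in time course 2.

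The opposite arms of these hairpins differed by less where the named arm was past 2-fold. miR-221-5p had log2 ratios of -0.90 and -0.12, miR-16-5p, which both miR-16 hairpins give, 0.69 and 0.43, and miR-330-5p -0.46 and -0.41. For miR-324-5p they were 0.35 and -1.35, the same signs as miR-324-3p at a smaller size. Among the remaining arms past 2-fold in 1 time course, miR-208a-5p had -0.18 and 1.06, miR-326-3p -0.14 and 1.06, miR-7a-1-3p -1.51 and 0.01, and miR-151-3p 1.38 and -0.30.

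In miR-324-3p the start of the tags went with the level. Tags starting 2 bases in, which carry another seed, made up 33.1% of its tags at day 3 and 63.4% at day 4 in time course 1, and 57.6% and 28.1% in time course 2. The tag shown above with that start had 20 copies at day 3 and 260 at day 4 in time course 1, and 430 and 7 in time course 2. The tag with the reference start had 50 and 122 copies, and 285 and 40. The form starting 2 bases in was thus the larger share in the libraries with many miR-324-3p tags and the smaller share in those with few, and the libraries with few, day 3 of time course 1 and day 4 of time course 2, had 260 tags of this arm each. In the 3 libraries of days 1 and 2 that form held 51.7% to 59.4% of tags.

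The families and clusters were each read by their summed level, and no member of any list was called (0% of the 594 arms). Members of a family can share tags, so they are not independent of each other. In the miR-23/24/27 clusters, which are expressed in heart and vessels, all 8 arms of at least 50 CPM were higher at day 4 in both time courses, against 57 of all 228 arms. The differences were small, from 0.01 to 0.33 in time course 1 and from 0.14 to 0.61 in time course 2, and the median of the 11 arms tested was 0.22. miR-23b-3p had 18736 and 12065 CPM at day 3 and 22934 and 15805 CPM at day 4.

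The let-7 family, whose members restrain growth and build up as cells differentiate, went apart between the time courses. Its summed level was 56841 CPM at day 3 and 71712 CPM at day 4 in time course 1, and 40602 and 27923 CPM in time course 2. Of the 18 arms of at least 50 CPM, 12 were higher at day 4 in time course 1 and 0 in time course 2, against 115 and 110 of all 228 arms. let-7b-5p had 10601 and 17589 CPM in time course 1, and 8662 and 5271 CPM in time course 2. let-7c-5p had log2 ratios of 0.29 and -0.71. The 9 members on the 5p arm, the arm that carries the let-7 seed, had median log2 ratios of 0.32 and -0.47.

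The miR-29 family had a similar opposition, with log2 ratios of its summed level of 0.63 and -0.42. In the miR-17-92 cluster and its paralogues, which promote proliferation, 8 of the 12 arms of at least 50 CPM were lower at day 4 in both time courses, against 60 of all 228 arms. Over its 22 arms tested the median log2 fold change was -0.12, and that of all arms was 0.00. The most abundant member, miR-93-5p, was not among these 8, with log2 ratios of 0.53 and -0.58. The sum over the cluster therefore had log2 ratios of 0.15 and -0.29.

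The list of the miR-15/16 family, which slows the cell cycle and includes miR-322, takes in both arms of each hairpin. Its summed level was higher at day 4 in both time courses, by log2 ratios of 0.22 and 0.31. Of its 12 arms of at least 50 CPM, 6 were higher and 2 lower in both, against 57 and 60 of all 228 arms. miR-322-3p had 4588 and 7437 CPM at day 3 and 5976 and 10739 CPM at day 4, a log2 fold change of 0.46 (95% interval -0.14 to 1.07). The opposite arm, miR-322-5p, had 4190 and 3335 CPM at day 3 and 4573 and 4841 CPM at day 4. miR-15b-5p had 14624 and 15524 CPM at day 3 and 15893 and 19514 CPM at day 4. Both miR-15b-5p values at day 4 lay above those at day 3, with a log2 fold change of 0.22 (95% interval -0.23 to 0.68). The miR-30 family, abundant in heart, had summed log2 ratios of 0.17 and 0.16, with miR-30c-5p at 0.31 (95% interval -0.15 to 0.77). For the cluster of miR-182, miR-183 and miR-96 the ratios were 0.35 and 0.16, and for the pair miR-221 and miR-222 they were -1.21 and -0.30. The miR-34 family gave 0.66 and -0.06, the miR-181 family -0.03 and -0.12, and the X-linked cluster of miR-322 and miR-503 -0.09 and 0.32. Both arms of miR-322 are counted in that cluster as well as in the miR-15/16 family.

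**Figure D3:**
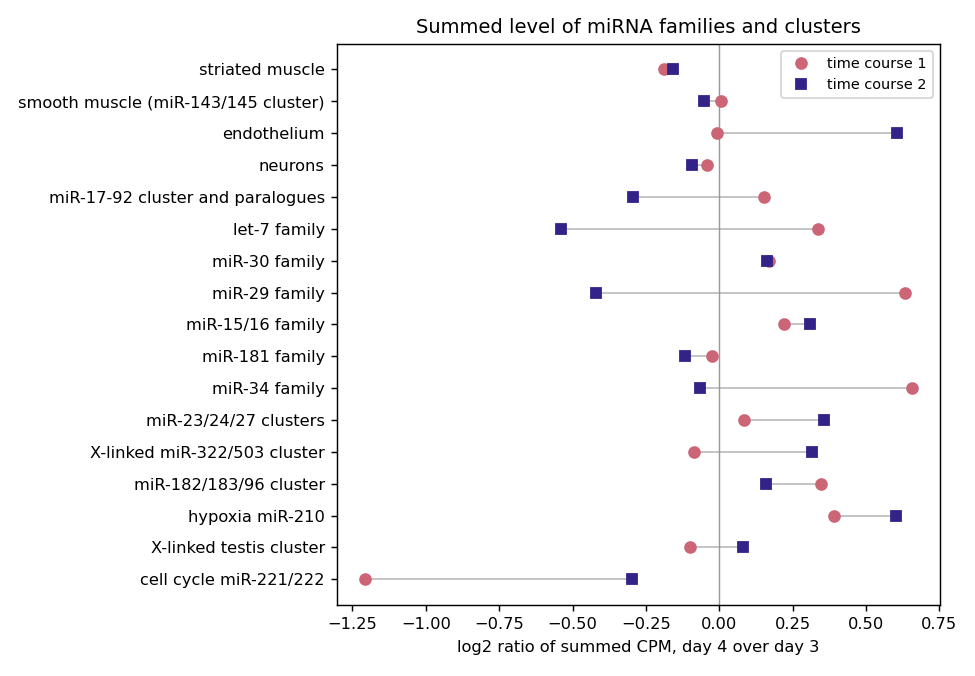
The log2 ratio of summed CPM at day 4 over day 3 for the miRNA lists with at least 50 CPM in each of the 4 libraries, circles for time course 1 and squares for time course 2, joined by a line. The let-7 and miR-29 families lie on opposite sides of 0, and the miR-30, miR-15/16 and miR-23/24/27 lists lie above 0 in both.

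Of the striated muscle list, miR-1a-3p, miR-133a-3p and miR-133b-3p had the most tags in the 4 libraries, and not all its members were abundant. Striated muscle miRNAs summed to 123769 and 114766 CPM at day 3 and 108511 and 102928 CPM at day 4, with log2 ratios of -0.19 and -0.16. Within the list, miR-133b-3p had 10616 and 10194 CPM, then 12641 and 7680.0 CPM. miR-208a-5p had 13871 and 11629 tags at day 3 and 10691 and 28524 at day 4. For miR-206-3p the tags were 7550 and 5330, then 5566 and 4280. Others were near the floor, with 18 and 50, then 12 and 66 tags of miR-499-5p, and 24 and 11, then 13 and 30 of miR-208b-3p. miRNAs known for other cell types were low: the lists for fibroblasts, blood cells, epithelium, hepatocytes and embryonic stem cells each summed to at most 45.2 CPM in the 4 libraries, and 2 of the 16 measured arms of the stem cell list had no tags there. Neuronal miRNAs summed to between 279 and 407 CPM. The endothelial miR-126a arms summed to 980.0 and 623 CPM at day 3 and 975 and 949 CPM at day 4, and miR-126a-3p had log2 ratios of -0.08 and 0.87. The smooth muscle pair of miR-143 and miR-145a is itself abundant in these cells, and miR-143-3p had a log2 fold change of 0.22 (95% interval -0.22 to 0.67). The X-linked testis cluster summed to between 201 and 388 CPM and the Dlk1-Dio3 cluster to between 26.6 and 61.5 CPM.

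Arm usage was asked of the hairpins with tags on both arms, as the share of tags on the 5p arm. Of 192 hairpins tested with limma on log2 odds, 0 (0%) passed an adjusted p of 0.05, and 6 (3.12%) had an unadjusted p under 0.05. The 5p arms together held 52.7% and 55.5% of generic tags at day 3 and 52.4% and 54.9% at day 4. Among the 122 hairpins with at least 1000 tags in each library, 51 shifted the same way in both time courses, and the 5 with the largest mean shift of these are given here. In miR-99b the 5p share was 85.4% and 82.0% at day 3 and 91.4% and 94.4% at day 4, without overlap (limma adjusted p = 0.93). This is the same difference as that of miR-99b-3p seen from the hairpin. The 5p share of let-7d was 52.6% and 67.9%, then 71.4% and 72.1%, with the low value in the day 3 library of time course 1.

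For miR-503 the 5p share was 82.0% and 83.9% at day 3 and 81.3% and 65.4% at day 4, so that most of the shift lay in time course 2. In that time course the day 1 library had 66.8% and the day 2 library 79.3%. miR-1839 had 67.7% and 63.7%, then 64.4% and 48.1%. In miR-362 the share was 47.2% and 57.2%, then 53.9% and 65.2%, a shift of 6.73 and 7.92 points. The shift of miR-362 was nearly alike in both time courses, but smaller than the distance between the time courses within a day.

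The isomiR shares of the whole population lay in overlapping ranges on both days. 5′ isomiRs made up 4.70% and 4.77% of generic tags at day 3 and 4.94% and 4.55% at day 4. 3′ isomiRs made up 49.7% and 52.4%, then 49.99% and 51.1%. Tags longer than 24 nt held 7.02% and 9.58% at day 3 and 6.17% and 8.27% at day 4, a difference of -0.85 and -1.30 points within the time courses, and the mean tag length was 22.4 and 22.6 nt, then 22.3 and 22.5 nt. These shares of whole libraries are given as values and were not tested.

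For single arms, 302 were tested for the share of 5′ isomiRs, and 0 (0%) passed limma's adjusted threshold while 16 (5.3%) had an unadjusted p under 0.05. Of 152 arms with at least 1000 tags in each library, 82 shifted the same way in both time courses. miR-128-3p, a miRNA known from brain and muscle, had the clearest of the 5 named shifts. Its 5′ isomiRs were 5.21% and 4.41% of tags at day 3 and 8.56% and 10.2% at day 4, a difference of 1.03 on the log2 odds scale (95% interval 0.43 to 1.63, limma adjusted p = 0.51). The shift lay in tags starting 3 bases upstream, at the edge of the 3 nt window that assigns a tag to an arm. They held 4.59% and 3.84% at day 3 and 7.57% and 9.32% at day 4. The tag of that start shown above had 176 and 155 copies at day 3 and 219 and 339 at day 4. The tag with the reference start and end had 3996 and 3969 copies at day 3 and 2744 and 2522 at day 4. The shift in share thus rests on fewer reference tags as well as on more upstream tags. In the libraries of days 1 and 2 the start 3 bases upstream held 2.28% to 4.95%, so that the day 4 libraries were the 2 highest of the 7.

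miR-133b-3p had 40.01% and 37.4% of 5′ isomiRs at day 3 and 43.4% and 47.2% at day 4, mostly tags starting 1 base in. miR-133a-3p differs from it near the 3′ end and shares short tags with it, but its reference start was that of its most frequent tag, which lies 1 base in from the reference start of miR-133b-3p. Its 5′ isomiRs, with 48.5% and 47.9%, then 47.7% and 41.5%, were therefore mostly tags of the upstream start. Counted at the same base, the start 1 base in held 51.5% and 52.1% of miR-133a-3p tags at day 3 and 52.3% and 58.5% at day 4, and 38.0% and 35.7%, then 41.2% and 44.7%, of miR-133b-3p tags. The log2 odds of these arms differed by 0.39 and -0.21, and neither interval left out 0. In miR-126a-3p the share was 56.5% and 55.3%, then 62.2% and 59.8%. Its day 1 libraries had 64.3% and 57.2% and the day 2 library 58.7%, so that its highest value was at day 1. miR-107-5p had 23.3% and 23.8% at day 3 and 27.3% and 29.5% at day 4. In miR-126a-3p, miR-107-5p and miR-133b-3p both day 4 libraries lay above both day 3 libraries. These arms were chosen for large shifts on the same side, so this separation is a description only.

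Of 307 arms tested for the share of 3′ isomiRs, 0 (0%) passed limma's adjusted threshold, and 6 (1.95%) had an unadjusted p under 0.05. Among 151 arms with at least 1000 tags in each library, 64 shifted the same way in both time courses. miR-151-5p had the largest mean shift of these. Tags off the reference end were 69.5% and 79.8% at day 3 and 51.9% and 61.8% at day 4, a difference of -17.6 and -18.02 points (log2 odds -1.18, 95% interval -2.03 to -0.33, limma adjusted p = 0.99). The tag with the reference end held 25.2% and 14.96% of miR-151-5p at day 3 and 44.3% and 31.6% at day 4. Tags ending 1 base further, at any start, held 32.7% and 33.8%, then 15.99% and 26.5%, so that the shorter form held the larger share at day 4 in both time courses.

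The earlier days of miR-151-5p did not lead up to this in a common way. The share off the reference end was 57.7% and 81.0% in the day 1 libraries of the time courses, and 59.4% in the day 2 library. The shares of the remaining named arms moved by unequal amounts or by less. miR-328-3p had 52.5% and 35.4% at day 3 and 56.3% and 60.5% at day 4, where the low value was that of time course 2 at day 3. miR-324-5p had 38.6% and 40.2%, then 40.3% and 62.2%, and miR-331-3p had 59.4% and 63.3%, then 61.9% and 76.9%. In miR-301a-5p the tags off the reference end were 82.1% and 77.2%, then 72.2% and 68.9%, a difference of -9.96 and -8.29 points. Most of these ended 1 base short of the reference, with 68.0% and 67.3% of tags at day 3 and 58.5% and 52.8% at day 4. Over the 15 named shares of arms and isomiRs the 95% Wilson interval of a library was at most 2.89 points to either side, which covers counting error only.

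**Figure D4:**
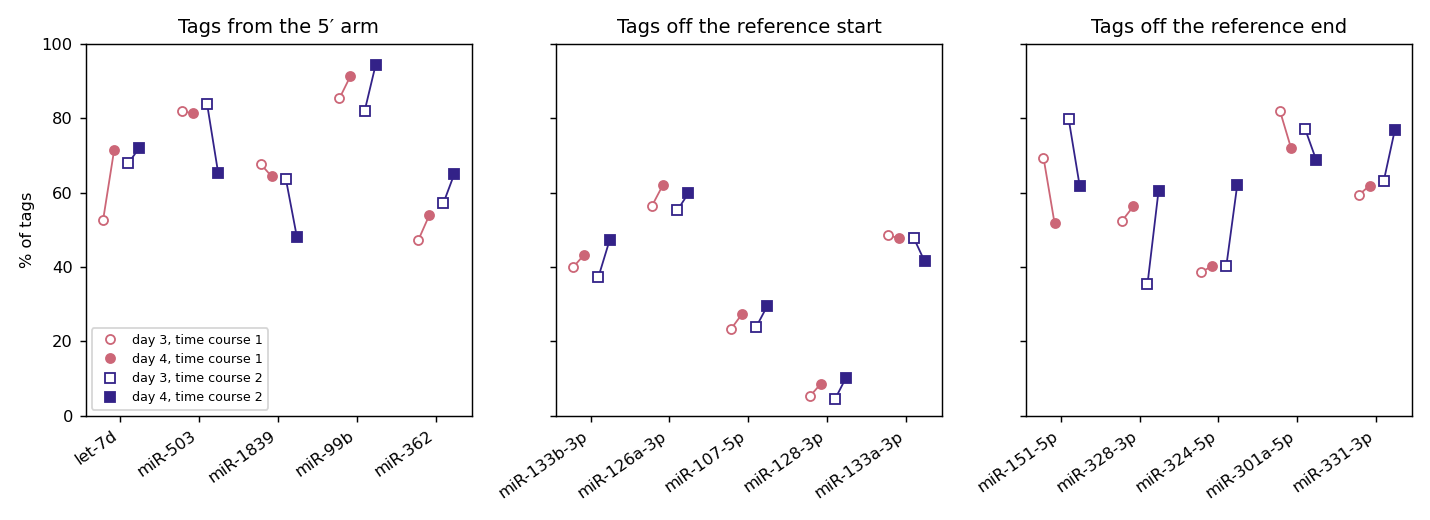
Percent of tags in each library for the 15 named shares: tags from the 5p arm of 5 hairpins (left), tags off the reference start of 5 arms (middle) and tags off the reference end of 5 arms (right). Open symbols are day 3 and filled symbols day 4, circles time course 1 and squares time course 2. miR-151-5p shifted by -17.6 and -18.02 points.

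**Figure D5:**
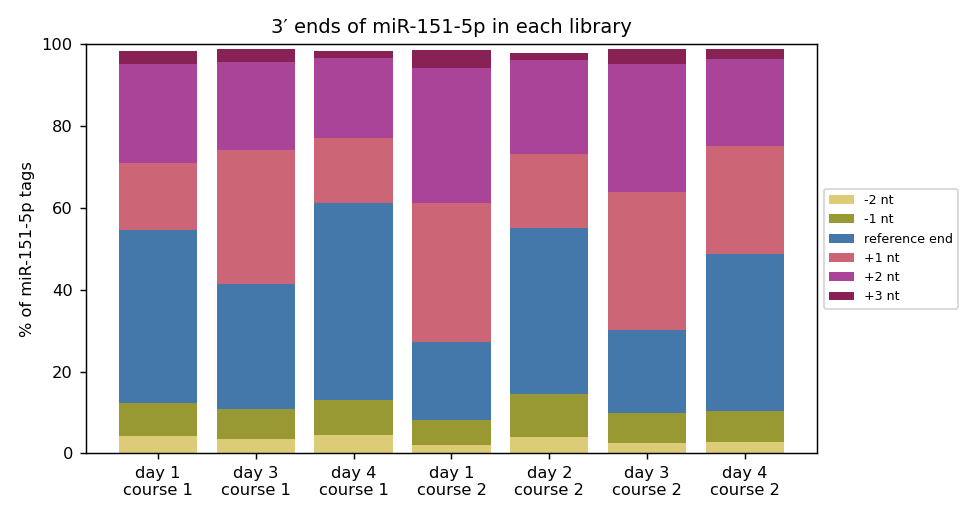
Percent of miR-151-5p tags that end at each base in the 7 libraries, counted from the end of the most frequent tag; rarer ends are left out, so bars stop short of 100%. The reference end holds 30.5% and 20.2% of tags at day 3 and 48.1% and 38.2% at day 4, and the day 1 libraries of the time courses differ from each other.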

How the data were processed

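The authors enriched small RNA by electrophoresis, sequenced it on the SOLiD platform, used the SOLiD Small RNA Pipeline for mapping to miRBase hairpins and the mouse genome (mm9 in the submitters' processing notes), and deposited raw, whole-number counts for each tag and library. Lines repeating a tag were summed, and 101 lines without a sequence (293 tags) were left out. Tags of at least 16 nt were placed on 1222 hairpins of GRCm38 (1005 from RefSeq, 217 from GENCODE M21) with at most 2 mismatches, and shared tags were divided equally. Members of a family therefore depend on each other. Starts and ends came from RefSeq mature sequences, or from the most frequent tag for 382 arms. RefSeq held the sequence of 10 of the 20 arms named by p or by tags.

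Counts per arm, rounded, were fitted with edgeR 4.0.16 (TMM, filterByExpr) over all 7 libraries, with day and time course as factors (2 residual degrees of freedom), at a coefficient of variation between replicates of 0.265. Ratios within a time course used a prior count of 2. Shares were fitted with limma 3.58.1 on log2 odds (pseudocount 0.5) where every library had at least 50 tags and each outcome 10. Adjustment was by Benjamini-Hochberg with a threshold of 0.05. The pairing comes from the replicate number in the labels, which marks a repeat of the time course. Deviations of same-numbered libraries from their day's mean were correlated across 594 arms (r = 0.37 for days 3 and 4, 0.44 for days 1 and 3, 0.42 for days 1 and 4). Both tests were checked on simulated data. edgeR called 28 of 96 arms changed by 1 on the log2 scale (29.2%) and 77 of 99 changed by 2 (77.8%). It called 1 of 380 unchanged arms, so 0 calls leave room for many changes of that smaller size. In a run with no arm changed, edgeR called 2. The share test called 50 of 60 arms shifted by 2 in log2 odds (83.3%) and 6 of 247 unchanged arms (2.43%). These simulated shares held no difference between the time courses. Smaller shifts were not tried, and the largest among the 15 named shares was 1.38, for miR-99b, so the recovery of shifts of that size is not known.

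Arms were named if called, and, as fewer than 10 were, the 10 with the smallest p among those of at least 50 CPM on the same side in both time courses, the 10 with the most tags, and up to 3 of each list. For shares, the 5 largest shifts on the same side with at least 1000 tags were named. The comparison, the lists and these rules were chosen with earlier results of these data known. Alternatives covered the block, the libraries fitted, normalization, filters, tools (DESeq2 1.42.0, limma-voom), mismatches, shared tags, the start window, reference ends and leaving out each library. Values were computed with R 4.3.3 and Python 3.11.15.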

Additional observations from a re-analysis of the deposited data

Results flagged for a closer look

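Tags on the hairpins but off both arms lie outside the comparisons above. They made up 0.393% and 0.351% of placed tags at day 3 and 0.376% and 0.419% at day 4, far above the 3 tags that a count of 0 allows, with 4931816 to 6877857 placed tags per library. The highest value was that of day 4 in time course 2, at 0.419%. The share was lower at day 4 in time course 1 and higher in time course 2. The part of single hairpins in this share was not tested.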

How the results depend on the processing

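No arm was called in the fit with the time course as a replicate block (0 of 594, with 21 at an unadjusted p under 0.05 in edgeR) and none without the block (0, with 11), and the same held for the arm, 5′ isomiR and 3′ isomiR shares by limma. Other normalizations, 4 libraries only, DESeq2, limma-voom, 0 mismatches, shared tags left out and, chosen after seeing the data, repeated lines counted once also gave 0 calls for abundance. Without a filter on low counts edgeR called 2 of 1135 arms, miR-292-3p and miR-378a-5p, the latter at a log2 fold change of -2.09 (adjusted p = 8.7e-06). miR-292-3p rests on 67 tags in the day 3 library of time course 1. Leaving out each of the 4 libraries gave 0 to 1 calls for abundance, 0 to 1 for arm shares, 0 to 1 for 3′ isomiR shares and 0 for 5′ isomiR shares. The arms called were miR-678-5p without day 3 of time course 1, miR-292-3p without day 3 of time course 2 and miR-378a-5p without day 4 of time course 1 (-3.87, edgeR adjusted p = 0.029). The hairpins were miR-378a and miR-1930 without day 3 of time course 1 and 2, and the 3′ isomiR was that of miR-195a-3p without day 3 of time course 2. The rule of 2-fold in both time courses left 0 arms, and at 1.5-fold it left 1, miR-99b-3p. With a library left out, the sign turned for 20 named arms, and their log2 fold changes ran over these ranges: let-7b-5p -0.63 to 0.71, let-7c-5p -0.69 to 0.34, let-7d-5p -0.080 to 1.43, miR-125b-5p -0.23 to 0.53, miR-126a-3p -0.043 to 0.91, miR-133a-3p -0.31 to 0.21, miR-133b-3p -0.33 to 0.24, miR-145a-5p -0.18 to 0.049, miR-151-3p -0.034 to 1.16, miR-16-2-3p -1.19 to 1.82, miR-208a-5p -0.12 to 1.07, miR-29a-3p -0.34 to 0.76, miR-30d-5p -0.10 to 0.24, miR-324-3p -2.88 to 2.06, miR-324-5p -1.17 to 0.24, miR-326-3p -0.17 to 1.09, miR-7a-1-3p -1.54 to 0.046, miR-877-3p -0.54 to 1.77, miR-93-5p -0.58 to 0.53 and miR-99a-5p -0.31 to 0.046. The other 22 named arms kept their sign, but 18 of them moved by over 1.5 times, among them miR-221-3p (-3.63 to -0.11), miR-330-3p (-2.11 to -0.13), miR-195a-3p (0.31 to 1.61) and miR-24-3p (0.0049 to 0.50). The 5′ isomiR log2 odds of miR-133a-3p ran from -0.42 to 0.0010. Without the replicate block miR-16-2-3p had a log2 fold change of -0.31. With ends taken from the most frequent tag, the log2 odds were -0.31 for the 5′ isomiRs of miR-126a-3p, and 0.74 and -0.46 for the 3′ isomiRs of miR-301a-5p and miR-331-3p. The cause of these turns was not tested, except that the other ends redefine the isomiR. Of 768 values of single arms and hairpins under an alternative, 731 kept their direction and side of the threshold, 35 turned their sign and 2, both of miR-378a-5p, passed the threshold. Depth limits the arms of few tags: miR-292-3p and miR-678-5p had at most 100 tags in each of the 4 libraries.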
